A study of Mus musculus with 5 samples.

Results

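The actin cytoskeleton genes described here are a list of 35 named genes, matched by symbol. They encode the cytoplasmic actins, the proteins that store, assemble, cap, cross-link and cut actin, and the myosin and linker proteins through which filaments pull on membranes and adhesions. All 35 were found in the KSL tables of 38166 features and in the granulocyte tables of 34315 features, by whole symbol or, for Arpc4, as a part of the merged feature Arpc4,Ttll3. RNA was sequenced from polyA-selected libraries of C57BL/6 mice in 4 groups. Granulocytes were Gr1+ bone marrow cells of mice aged 12 months, sequenced as 2 technical replicates of 1 biological replicate, so both were averaged and n = 1. The LncHSC-1 knockdown, LncHSC-2 knockdown and control knockdown groups had 1 library each. Their cells were c-Kit+ Sca-1+ lineage-negative (KSL) cells, a marrow population rich in blood stem and early progenitor cells. For all 3 groups Sca-1+ cells were taken from mice injected with 5-fluorouracil, a drug that kills dividing cells, and infected with a retrovirus carrying GFP. The cells then spent 2 days in culture with growth factors that included 10 ng/ml SCF and with 2 mM L-glutamine before GFP+ KSL cells were sorted. The sources used here do not say how many animals were pooled or how old the injected mice were. The question of the knockdown libraries was which genes depend on 2 long non-coding RNAs, named LncHSC-1 and LncHSC-2. The labels do not say which features of the tables these RNAs are, and the size of either knockdown was not analysed here.

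Actin monomers join into polar filaments that grow at the barbed end, and moving blood cells push their front forward by assembling a branched network there. Thymosins hold monomers in reserve and profilin feeds them to growing ends. The Arp2/3 complex starts branches when WASP proteins activate it, capping proteins stop growth, and cofilin with its helpers takes old filaments apart. Neutrophils, the main granulocytes of marrow, are among the fastest crawling cells and rely on this cycle for chemotaxis and phagocytosis.

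Estimated depths were 24.1 M reads in the LncHSC-1 library, 19.9 M in the LncHSC-2 library and 21.0 M in the control library, and the members held from 768 to 43700 reads in a KSL library. The scaled granulocyte counts totalled 40.4 M in each replicate. With 1 library per group there was no replicate, so no difference between groups could be tested, and every ratio below compares libraries and may be technical or biological. Intervals of ratios are exact binomial 95% intervals on the log2 scale, cover counting error only and say nothing of the spread between cultures. The 13 mature granulocyte markers all reached 5 FPKM in granulocytes, with S100a8 at 55377 and 57405 FPKM in both replicates, and all 12 stem and progenitor markers averaged at least 5 FPKM in the KSL libraries. The B lineage markers summed to 107 FPKM in the LncHSC-1 library, 61.9 in the LncHSC-2 library and 59.0 in the control library, with Igll1 at 0 in the control library, and 6 of 6 measurable genes were at least 1.2-fold higher in LncHSC-1 than in control. Monocyte, macrophage and dendritic markers summed to 326 FPKM in LncHSC-1, 211 in LncHSC-2 and 197 in control, with 6 of 7 measurable genes at least 1.2-fold higher in LncHSC-1 than in control. Megakaryocyte and platelet markers summed to 748 FPKM in LncHSC-1, 719 in LncHSC-2 and 584 in control, with 5 of 8 genes in LncHSC-1 and 6 of 8 in LncHSC-2 at least 1.2-fold higher than in control. In granulocytes the monocyte list summed to 455 FPKM, the megakaryocyte list to 77.0 and the B lineage list to 3.70. The part of these cell types in the ratios below was not tested, and in bulk RNA fewer cells of a type and less RNA per cell cannot be told apart.

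Taken as a group, the actin genes filled a larger share of the granulocyte transcriptome than of the KSL transcriptomes. To set libraries of separately scaled experiments side by side, each FPKM value was divided by the library's sum over the 34309 features shared by symbol and given in parts per 1000000 (ppm). The 35 genes took 5.03% of summed FPKM in granulocytes (5.07% and 4.99% in the technical replicates), against 1.97% in the LncHSC-1, 1.97% in the LncHSC-2 and 1.96% in the control library. By this measure 29 members stood above every KSL library in granulocytes, 5 below every one and 1, Capzb, within their range. Across all 11238 features compared, only 22.7% stood above every KSL library and 74.1% below every one. As a share of the count columns (read share), which does not depend on the transcript length each experiment used, 31 members stood above and 4 below, against 26% above and 71.6% below over all features. With the count columns divided by 1 common length per gene, that of the granulocyte tables, 28 stood above, 6 below and 1, Myl12a, within. Over all features 21.4% stood above and 76.5% below. This comparison joins Gr1+ cells of mice aged 12 months with cultured, infected progenitors, so cell type, age, culture and experiment cannot be told apart.

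Tmsb4x and Actb carried much of the granulocyte share. Tmsb4x made up 29.4% of the members' summed level in granulocytes, against 16.8% in LncHSC-1, 17.2% in LncHSC-2 and 16.0% in control. Actb made up 18.8% in granulocytes, against 10.1% in LncHSC-1, 9.90% in LncHSC-2 and 10.1% in control. Without both genes the other members still took 2.60% of summed FPKM in granulocytes, against 1.44% in LncHSC-1, 1.44% in LncHSC-2 and 1.45% in control. The median member held rank 142 of all features in granulocytes, against rank 534 in LncHSC-1, 505 in LncHSC-2 and 514 in control. Among the 100 highest features were 15 members in granulocytes and 4 in each KSL library. The total behind the granulocyte shares is itself uneven, since the top 2 features, the calprotectin genes S100a8 and S100a9, took 26.4% of summed FPKM there, and the top 2 features of a KSL library at most 2.33%.

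**Figure D1:**
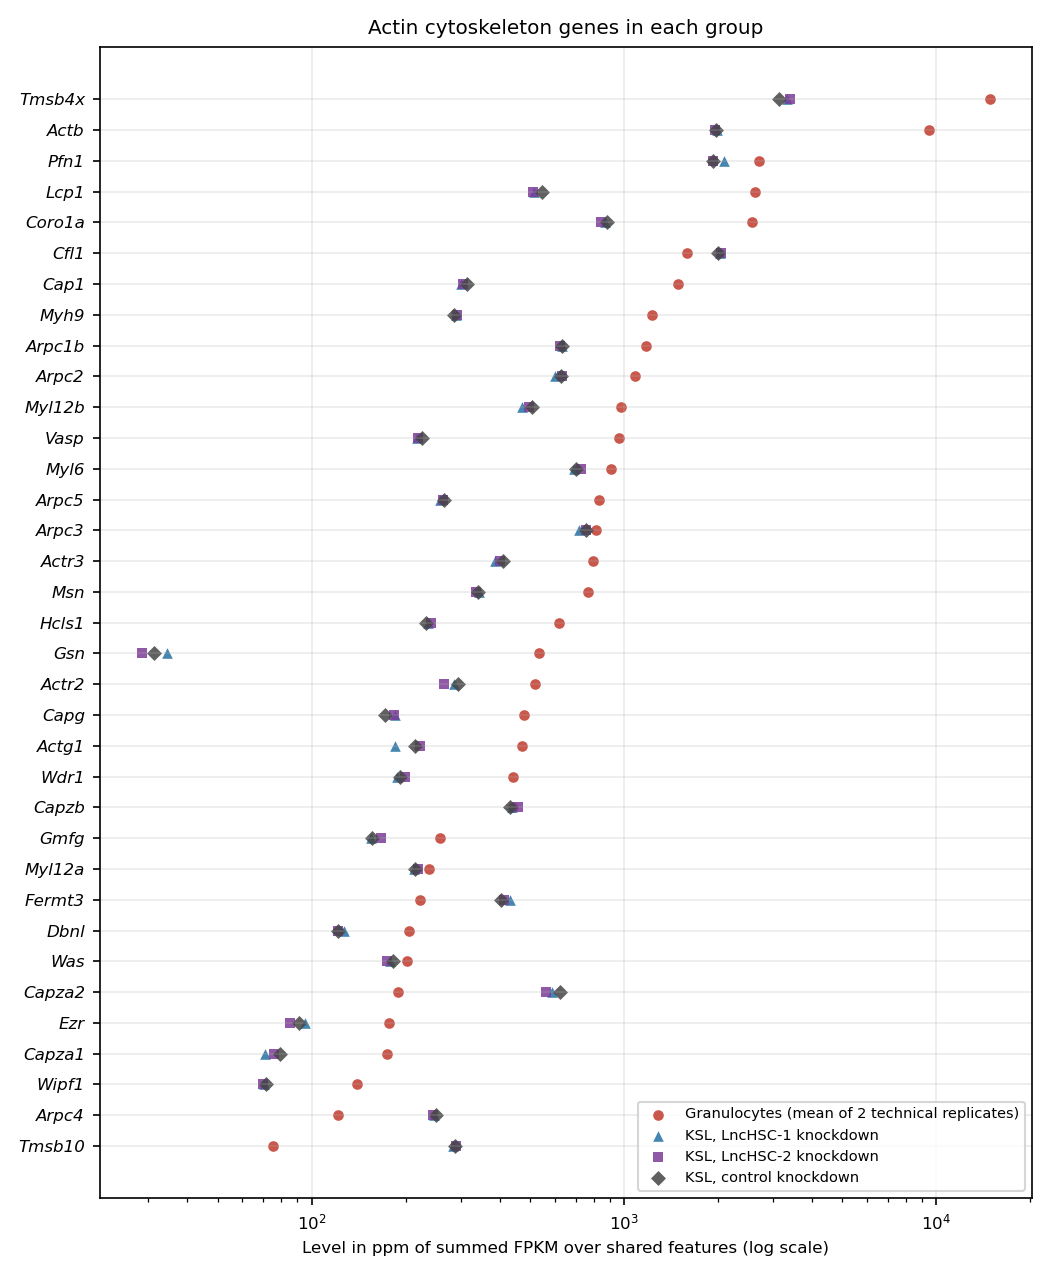
Level of each of the 35 genes in ppm of summed FPKM over shared features (log axis), genes ordered by their granulocyte level; circles are granulocytes, the mean of 2 technical replicates, and the other marks are single KSL libraries. The granulocyte circle lies right of all KSL marks for 29 genes and left of them for Tmsb10, Cfl1, Capza2, Fermt3 and Arpc4, while the 3 KSL marks nearly coincide.

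The thymosin beta 4 transcript was higher in granulocytes and far exceeded that of its paralogue thymosin beta 10 in both cell types. The thymosin beta 10 transcript was lower in granulocytes. Tmsb4x (mm9 chrX:163645026-163647150, minus strand), which encodes the main actin-monomer store of blood cells, had 6588 and 6548 FPKM in the granulocyte replicates, against 1428 in LncHSC-1, 1539 in LncHSC-2 and 1374 in control. It ranked 7th among all granulocyte features and led the members in every library. Tmsb10 (mm9 chr6:72907341-72908742, minus strand), a close paralogue that also binds monomers, had 35.2 and 31.4 FPKM in granulocytes, against 122 in LncHSC-1, 131 in LncHSC-2 and 126 in control. Tmsb10 was thus the lowest member in granulocytes, at rank 1550. The ratio of Tmsb10 to Tmsb4x within a library, which no scaling of the library alters, was 0.00507 in granulocytes, against 0.0857 in LncHSC-1, 0.0852 in LncHSC-2 and 0.0919 in control. Part of this gap came from the lengths behind FPKM. Lengths were inferred from counts per FPKM, and their ratio between experiments was taken relative to the median feature. By this measure the granulocyte length was 2.19 times the KSL length for Tmsb10 and 1.23 times for Tmsb4x. With 1 common length per gene, that of the granulocyte tables, the ratio was 0.0518 in control and by construction still 0.00507 in granulocytes. Tmsb10 stood 0.630-fold in granulocytes relative to control in read share, against 0.261-fold in ppm of FPKM. Both sequences are shown over the stretch that encodes the actin-binding motif, because the contrast rests on telling such close paralogues apart. They are coding sequence from the GENCODE transcripts of GRCm38, with capitals marking the bases at which they differ (24 of 30 bases are identical).
Tmsb4x: TcGaagTtgaagaaaacAgaAacgcaAgag
Tmsb10: GcCaagCtgaagaaaacCgaGacgcaGgag
Of the 1362 words of 50 bases in whole Tmsb4x transcripts 0 occur in another gene, so none is shared with Tmsb10. Of the 50-base words of whole Tmsb10 transcripts 27.0% also occur in other genes, mainly in Gm9844, so reads may be split with it. Gm9844 had 0.358 FPKM in granulocytes, against 4.73 in LncHSC-1, 4.55 in LncHSC-2 and 4.27 in control.

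Both cytoplasmic actins were higher in granulocytes, beta-actin more so than gamma-actin. Actb (mm9 chr5:143664795-143668403, minus strand) had 4205 and 4174 FPKM in granulocytes, against 856 in LncHSC-1, 886 in LncHSC-2 and 868 in control, a level in ppm 4.78-fold that of control. Actg1 (mm9 chr11:120207004-120209798, minus strand), the second non-muscle actin, had 214 and 206 FPKM in granulocytes, against 79.8 in LncHSC-1, 100.8 in LncHSC-2 and 94.1 in control. Actg1 was the member that varied most among the KSL libraries, with the LncHSC-1 library lowest and a highest-to-lowest ratio of 1.26. The ratio of Actg1 to Actb was 0.0501 in granulocytes, against 0.0932 in LncHSC-1, 0.114 in LncHSC-2 and 0.108 in control. Of the 50-base words of Actg1, 45.6% occur in other genes and processed copies, so its counts may include or lose reads of these. The 2 actins summed to 0.666 of both thymosins in granulocytes, against 0.604 in LncHSC-1, 0.591 in LncHSC-2 and 0.641 in control, but at common lengths the control ratio was 0.801, so which cell type had more actin transcript per thymosin transcript depends on the length model.

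The proteins that feed and recycle monomers split in ppm of summed FPKM. Pfn1, profilin, had 1221 and 1187 FPKM in granulocytes, against 898 in LncHSC-1, 872 in LncHSC-2 and 845 in control. Cfl1, the filament-severing cofilin of non-muscle cells, had 710 and 701 FPKM in granulocytes, against 870 in LncHSC-1, 923 in LncHSC-2 and 878 in control. Its granulocyte level in ppm was below every KSL library, at 0.795-fold of control, and its read share was 0.952-fold of control. At common lengths Cfl1 had 1590 ppm in granulocytes, against 2143 in LncHSC-1, 2207 in LncHSC-2 and 2146 in control. Its direction depends on the total used, since after median-of-ratios scaling of the libraries Cfl1 stood above every KSL library. The ratio of Cfl1 to Pfn1 was 0.586 in granulocytes, against 0.969 in LncHSC-1, 1.06 in LncHSC-2 and 1.04 in control. The cofilin helpers went with profilin. Cap1, which recycles monomers off cofilin, had 658 and 659 FPKM in granulocytes, against 129 in LncHSC-1, 138 in LncHSC-2 and 138 in control, 4.74-fold in ppm relative to control. Wdr1, which speeds cofilin-driven disassembly, had 194 and 198 FPKM in granulocytes, against 80.7 in LncHSC-1, 90.4 in LncHSC-2 and 83.9 in control. Of Cfl1's 50-base words 8.22% occur elsewhere, and Gm6180, which shares most of them, had 7.82 FPKM in granulocytes, against 65.9 in LncHSC-1, 59.9 in LncHSC-2 and 62.7 in control.

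The 7 subunits of the Arp2/3 complex, which nucleates branches, were not expressed in equal amounts. Arpc1b, the subunit form of blood cells, had 528 and 519 FPKM in granulocytes, against 272 in LncHSC-1, 283 in LncHSC-2 and 277 in control. Arpc2 had 480 and 481 FPKM in granulocytes, against 259 in LncHSC-1, 286 in LncHSC-2 and 276 in control, and Arpc3 had 360 and 359 FPKM, against 310 in LncHSC-1, 342 in LncHSC-2 and 332 in control. Among these 3 subunits the level in ppm relative to control was highest for Arpc1b, at 1.87-fold, and lowest for Arpc3. Arpc5 had 374 and 365 FPKM in granulocytes, against 111 in LncHSC-1, 120 in LncHSC-2 and 117 in control. Actr2 and Actr3 are the actin-like subunits that template the branch. Actr2 had 230 and 230 FPKM in granulocytes, against 123 in LncHSC-1, 120 in LncHSC-2 and 130 in control, and Actr3 had 354 and 350 FPKM, against 167 in LncHSC-1, 182 in LncHSC-2 and 180 in control. Levels in ppm in granulocytes relative to control were highest for Arpc5, at 3.13-fold, and 1.07-fold for Arpc3. The alternative forms Arpc5l and Arpc1a, not among these 7, went the other way. Arpc5l had 10.4 and 11.5 FPKM in granulocytes, against 49.0 in LncHSC-1, 50.4 in LncHSC-2 and 48.6 in control. Arpc1a had 44.8 and 45.4 FPKM in granulocytes, against 68.4, 66.7 and 66.7 in the same libraries. In ppm they were 0.223-fold and 0.669-fold of control. Levels summed over both forms were not computed, and Arpc5l was chosen after its values were seen. The highest of the 6 subunits other than Arpc4 exceeded the lowest by 2.28 times in granulocytes (Arpc1b over Actr2), against 2.80 times in LncHSC-1, 2.86 in LncHSC-2 and 2.84 in control (Arpc3 over Arpc5 in each). Arpc4 is counted in a feature merged with its neighbour Ttll3, with an inferred granulocyte length 2.64 times the KSL length, relative to the median feature. It had 54.1 and 53.5 FPKM in granulocytes, against 106 FPKM in LncHSC-1, 111 in LncHSC-2 and 109 in control, but in read share it was 1.42-fold higher in granulocytes than in control, so its direction turns with the length model. Actr3 shares 44.5% of its 50-base words with other genes, mainly Gm8822, which stayed under 10 FPKM in all groups.

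The activators and partners of branching stood higher in granulocytes in ppm of FPKM by unequal amounts, and for Was this turned with the length model. Was, the blood-cell WASP protein that switches on Arp2/3, had 89.6 and 89.1 FPKM in granulocytes, against 76.4 in LncHSC-1, 79.3 in LncHSC-2 and 80.0 in control. At common lengths it had 201 ppm in granulocytes, against 202 in LncHSC-1, 203 in LncHSC-2 and 210 in control, and so lay below every KSL library. Its stabilising partner Wipf1 had 62.5 and 61.3 FPKM in granulocytes, against 30.4 in LncHSC-1, 31.8 in LncHSC-2 and 31.3 in control. Hcls1, the blood-cell cortactin that holds branches in place, had 276 and 275 FPKM in granulocytes, against 102 in LncHSC-1, 110 in LncHSC-2 and 102 in control. Vasp, which elongates filaments at their barbed ends, stood out in this class. It had 432 and 425 FPKM in granulocytes, against 93.8 in LncHSC-1, 99.2 in LncHSC-2 and 98.7 in control, 4.30-fold in ppm relative to control. An unnamed feature on the opposite strand, HAG_035057, overlaps its end and had 244 FPKM in granulocyte replicate 1, so the Vasp level in granulocytes is uncertain. The drebrin-like adaptor Dbnl had 92.9 and 89.7 FPKM in granulocytes, against 54.7 in LncHSC-1, 55.1 in LncHSC-2 and 53.2 in control. Gmfg, which undoes branches in blood cells, had 114 and 114 FPKM in granulocytes, against 66.8 in LncHSC-1, 75.8 in LncHSC-2 and 68.7 in control. Its inferred granulocyte length was 1.26 times the KSL length, relative to the median feature.

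Capping and severing showed the largest single contrast and an isoform difference. Gsn (mm9 chr2:35111879-35163422, plus strand) encodes gelsolin, which cuts filaments in response to calcium and caps the new ends. It had 240 and 235 FPKM in granulocytes, against 14.8 in LncHSC-1, 13.0 in LncHSC-2 and 13.7 in control, 17.2-fold in ppm relative to control and 21.0-fold in read share. Gsn was the lowest member in each KSL library. Capg, its smaller relative that caps without cutting, had 211 and 213 FPKM in granulocytes, against 79.3 in LncHSC-1, 83.3 in LncHSC-2 and 75.2 in control. The ratio of Capg to Gsn was therefore 0.890 in granulocytes, against 5.36 in LncHSC-1, 6.42 in LncHSC-2 and 5.49 in control. Of the heterodimeric capping protein, the alpha 2 subunit Capza2 (mm9 chr6:17587098-17616536, plus strand) had 83.9 and 83.2 FPKM in granulocytes, against 253 in LncHSC-1, 255 in LncHSC-2 and 274 in control. The alternative alpha 1 subunit Capza1 had 77.2 and 77.1 FPKM in granulocytes, against 30.5 in LncHSC-1, 34.2 in LncHSC-2 and 34.7 in control. Capza2 over Capza1 was 1.08 in granulocytes, against 8.31 in LncHSC-1, 7.46 in LncHSC-2 and 7.87 in control, so the 2 subunits were about even in granulocytes and the alpha 2 form led in KSL cells. Their shared beta subunit Capzb, with 195 and 195 FPKM in granulocytes against 189 in LncHSC-1, 207 in LncHSC-2 and 190 in control, was within the KSL range in ppm and below every KSL library at common lengths. Capza1 carries the widest doubt of all members: 72.7% of its 50-base words occur elsewhere, mainly in Gm3608, which had 17.3 FPKM in granulocytes, against 10.3 in LncHSC-1, 8.15 in LncHSC-2 and 8.59 in control. In all, 13 members share at least 5% of these words with other genes and 15 share none.

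Of the 9 gene pairs compared within libraries, Tmsb10 over Tmsb4x, Capza2 over Capza1 and Capg over Gsn differed by at least 1 on the log2 scale between granulocytes and every KSL library. The same 3 did so at common lengths and with either granulocyte replicate alone. The ratio of Ezr to Msn lay nearer in both cell types, at 0.232 in granulocytes, against 0.276 in LncHSC-1, 0.253 in LncHSC-2 and 0.267 in control. The ratio of Actr2 to Actr3 was 0.653 in granulocytes, against 0.738 in LncHSC-1, 0.659 in LncHSC-2 and 0.719 in control, so there granulocytes and the LncHSC-2 library nearly met.

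**Figure D2:**
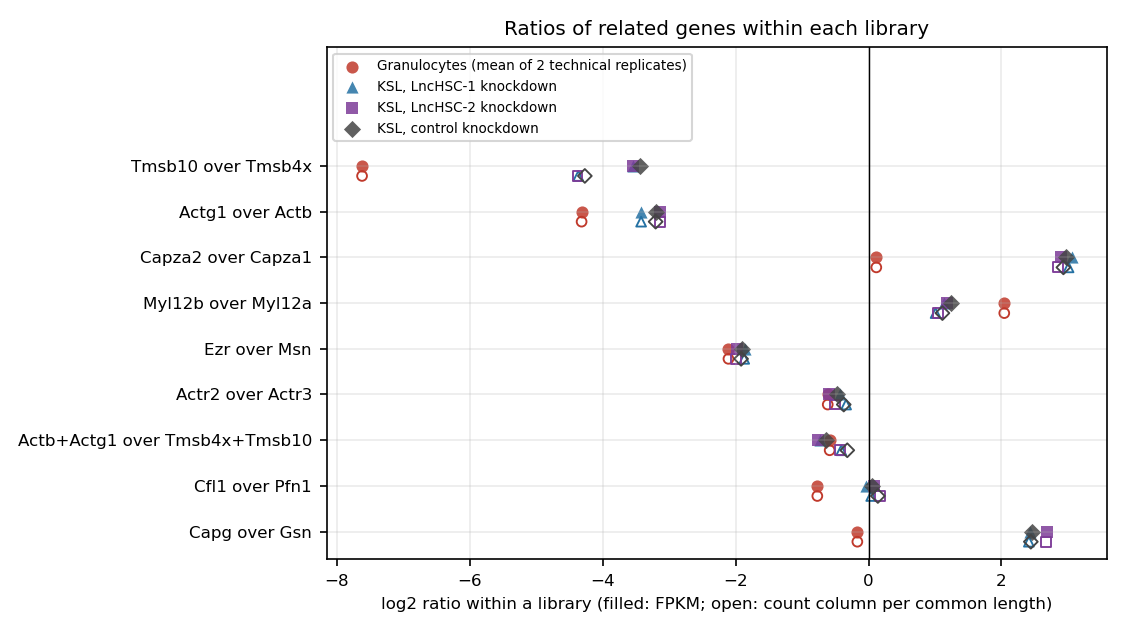
Ratio of 2 genes within each library (log2 axis), filled marks from FPKM and open marks from count columns divided by 1 common length; circles are granulocytes and the other marks KSL libraries. Granulocytes lie far left of the KSL libraries for Tmsb10 over Tmsb4x, Capza2 over Capza1 and Capg over Gsn, and right of them for Myl12b over Myl12a.

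The cross-linking and side-binding genes were among the strongest in granulocytes. Lcp1, L-plastin, which bundles filaments in white blood cells, had 1169 and 1157 FPKM in granulocytes, against 222 in LncHSC-1, 232 in LncHSC-2 and 239 in control, 4.80-fold in ppm relative to control. Coro1a, the blood-cell coronin that binds filament sides, had 1148 and 1135 FPKM in granulocytes, against 375 in LncHSC-1, 384 in LncHSC-2 and 386 in control. The membrane linkers were both higher as well. Moesin, Msn, had 339 and 340 FPKM in granulocytes, against 148 in LncHSC-1, 152 in LncHSC-2 and 149 in control, and its relative ezrin, Ezr, had 78.5 and 78.9 FPKM, against 40.9 in LncHSC-1, 38.6 in LncHSC-2 and 39.9 in control. Fermt3 went the other way. It encodes kindlin-3, which activates the integrins of blood cells and platelets, and had 99.1 and 98.6 FPKM in granulocytes, against 186 in LncHSC-1, 187 in LncHSC-2 and 178 in control. Its level in ppm was 0.550-fold of control and its read share 0.605-fold.

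Non-muscle myosin II, the motor that contracts the rear of a moving cell, was also higher in granulocytes, and its regulatory light chains were used in different proportions. The heavy chain Myh9 had 546 and 542 FPKM in granulocytes, against 124 in LncHSC-1, 133 in LncHSC-2 and 125 in control, 4.30-fold in ppm relative to control. The essential light chain Myl6 had 406 and 398 FPKM in granulocytes, against 297 in LncHSC-1, 329 in LncHSC-2 and 307 in control, a narrower gap than that of the heavy chain. The regulatory light chain Myl12b had 439 and 430 FPKM in granulocytes, against 202 in LncHSC-1, 225 in LncHSC-2 and 222 in control. Its neighbour and near-copy Myl12a had 106 and 105 FPKM in granulocytes, against 91.7 in LncHSC-1, 99.3 in LncHSC-2 and 93.8 in control, and at common lengths its level lay within the KSL range. Myl12b over Myl12a was 4.12 in granulocytes, against 2.21 in LncHSC-1, 2.26 in LncHSC-2 and 2.37 in control. The pair share 20.7% of the 50-base words of Myl12b, so reads can be split between them.

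Among the KSL libraries the actin genes stood nearly level. Of the 35 members, 34 lay within 1.2-fold across all 3 libraries, and 31 of the 35 averaged at least 50 FPKM. The share of all features within 1.2-fold across the 3 libraries was not computed. In each single comparison below most features lay within it too. Ratios were computed as log2(FPKM + 1), and 1.2-fold was used as the rule of size. Their summed level was 8490 FPKM in LncHSC-1, 8949 in LncHSC-2 and 8589 in control.

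For LncHSC-1 over control the median log2 ratio of the members was -0.04, against -0.02 over all 9153 features with a mean of at least 5 FPKM. No member was 1.2-fold higher and none 1.2-fold lower, where 5.13% and 3.64% of all features were. Of the members 33 lay within 1.1-fold, for which no share over all features was computed. The quartiles of all features were -0.10 and 0.07. Below 0 were 28 members and above it 7, against 56.1% of features below and 43.8% above, and 58.4% and 41.6% of the abundant features that averaged at least 50 FPKM. In the deposited count columns 28 also lay below 0 and 7 above. Relative to the median of all features in these columns, -0.02, only 22 members lay below and 13 above. The lowest was Actg1, at 79.8 FPKM in LncHSC-1 and 94.1 in control, a log2 ratio of -0.23 (counting interval -0.30 to -0.18). It was followed by Capza1, at 30.5 FPKM in LncHSC-1 and 34.7 in control (-0.18, interval -0.27 to -0.11). The highest was Gsn, at 14.8 FPKM in LncHSC-1 and 13.7 in control (0.10), whose interval from -0.02 to 0.24 includes 0. Pfn1 was next, at 898 FPKM in LncHSC-1 and 845 in control (0.09, interval 0.06 to 0.12). The Arp2/3 subunits other than Arpc1b lay between -0.11 and -0.04, and Arpc1b lay at -0.03.

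For LncHSC-2 over control the median was 0.04, against 0.00 over all features and 0.02 over the 1772 features averaging at least 50 FPKM. Again no member passed 1.2-fold in either direction, where 3.4% of features were higher and 2.37% lower. Of the members 27 were above 0 and 8 below, against 52.1% and 47.9% of all features and 62.4% and 37.6% of the abundant ones. This direction rests on the FPKM scale: in the deposited count columns 1 member lay above 0 and 34 below, because these columns place the median of all features at -0.14, and 27 members again lay above that median. The highest ratio was that of Tmsb4x, at 1539 FPKM in LncHSC-2 and 1374 in control (0.16, interval 0.13 to 0.19). Capg (0.15), Gmfg (0.14) and Capzb (0.13) came next, with 83.3, 75.8 and 207 FPKM in LncHSC-2 and 75.2, 68.7 and 190 in control. The lowest were Actr2, at 120 FPKM in LncHSC-2 and 130 in control (-0.11, interval -0.15 to -0.07), and Capza2, at 255 FPKM in LncHSC-2 and 274 in control (-0.10, interval -0.14 to -0.06). Capza2 was low in both knockdowns relative to the control library they share, with -0.11 in LncHSC-1.

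For LncHSC-1 over LncHSC-2, which does not use the control library, the median was -0.09, against -0.03 over all features and -0.05 over the abundant ones. Here 31 members were below 0 and 4 above, against 59.5% and 40.4% of all features and 69.3% and 30.6% of the abundant ones. In the count columns as deposited 30 lay above 0 and 5 below, and relative to their median of 0.12 over all features 28 lay below. Actg1 was the 1 member at least 1.2-fold lower, with 79.8 FPKM in LncHSC-1 and 100.8 in LncHSC-2 (-0.33, interval -0.40 to -0.27), and no member was 1.2-fold higher, where 3.8% of all features were lower and 4.6% higher. One member of 35 past the rule is close to that background, and in the count columns as deposited the Actg1 ratio was -0.19, not past 1.2-fold, and -0.31 relative to their median of all features. Gsn had the highest ratio (0.18, interval 0.05 to 0.32), and Ezr, Pfn1 and Actr2 were the other 3 above 0. At 1.5-fold no member was past the rule in any of the 3 comparisons, where 1.47% of features were higher and 0.754% lower in LncHSC-1 over control, 1.04% and 0.732% in LncHSC-2 over control, and 1.37% and 0.94% in LncHSC-1 over LncHSC-2.

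**Figure D3:**
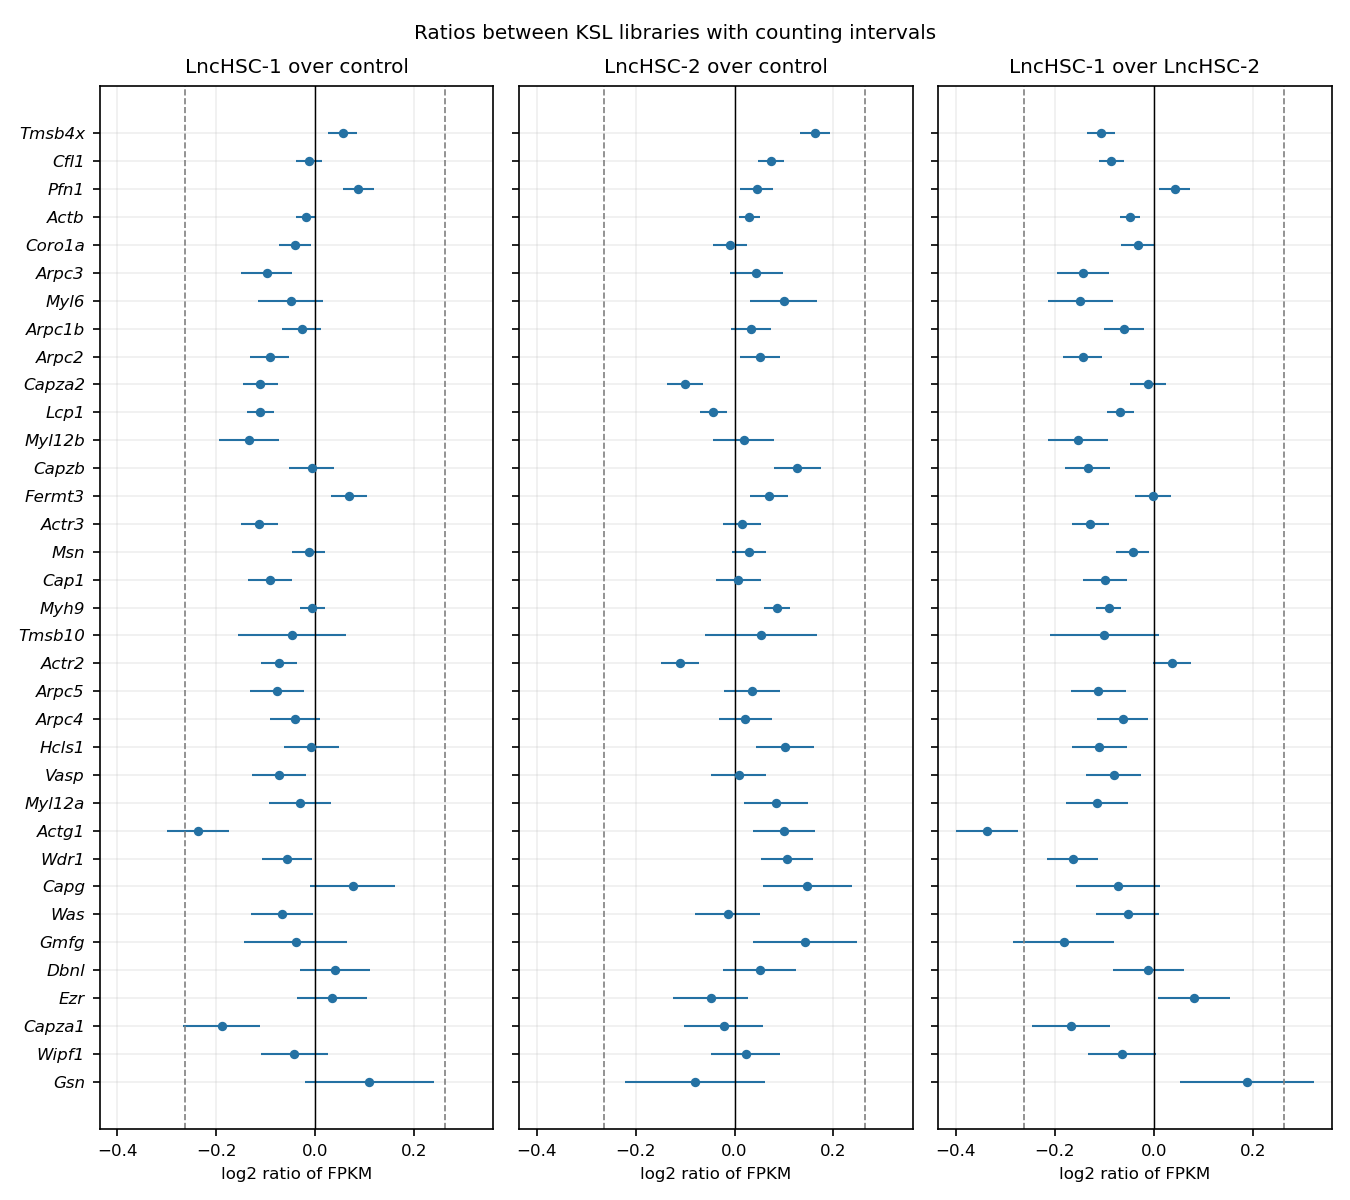
Ratio of FPKM between KSL libraries for each gene (log2 axis), with exact binomial 95% counting intervals as bars and 1.2-fold as dashed lines; genes run from the highest mean KSL level at the top. Actg1 in LncHSC-1 over LncHSC-2, at -0.33, is the only point past a dashed line.

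**Figure D4:**
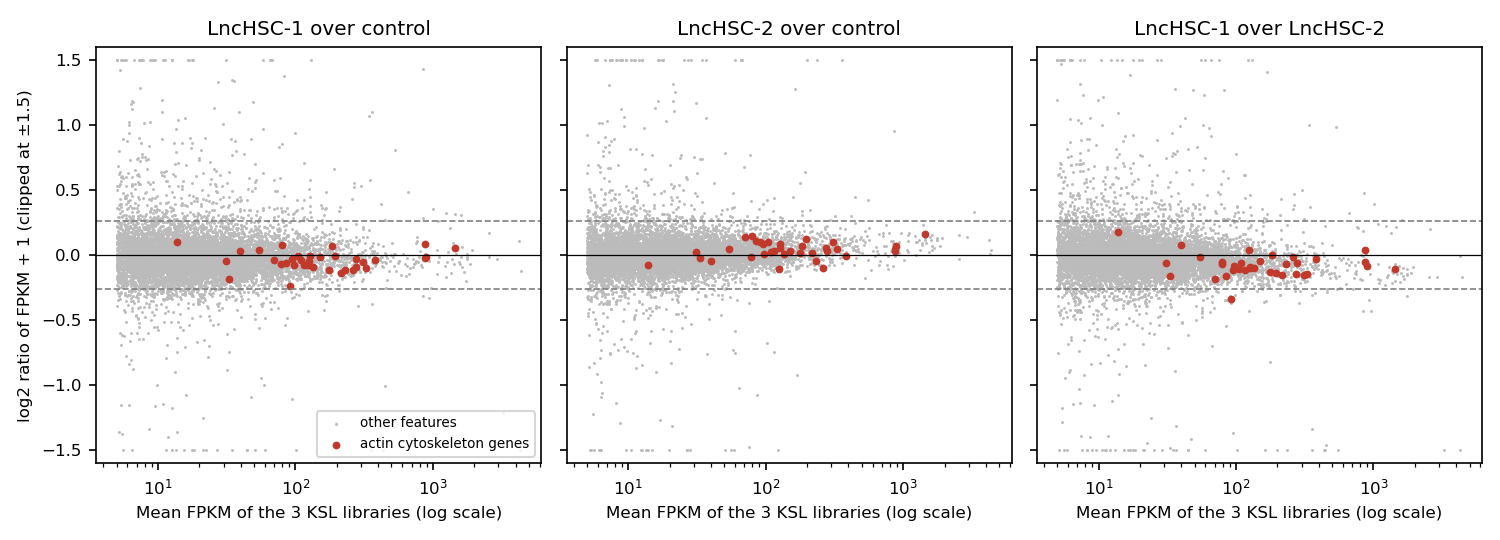
Log2 ratio of FPKM + 1 (clipped at 1.5 in either direction) against mean FPKM of the 3 KSL libraries (log axis) for 9153 features in grey, with the 35 actin genes in red and 1.2-fold as dashed lines. Most red points lie at the high end of the level axis, and all lie between -0.33 and 0.18.

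The wider pathway was described by 8 lists holding 155 further genes of the tables, of which 109 averaged at least 5 FPKM in the KSL libraries. In LncHSC-1 over control 1 of the 109, the adaptor gene Nck2, was at least 1.2-fold higher and 1, the branch-removing gene Gmfb, lower, with a median of -0.04, where 5.13% of all features were higher and 3.64% lower. Nck2 had 8.94 FPKM in LncHSC-1 and 6.98 in control, and Gmfb had 35.4 in LncHSC-1 and 44.2 in control (log2 ratio -0.31). In LncHSC-2 over control Scin and Zyx were at least 1.2-fold higher and no gene was lower, with a median of 0.03, where 3.4% and 2.37% of all features were. Scin, the gelsolin relative adseverin, had 23.3 FPKM in LncHSC-2 and 18.6 in control. Zyx, a focal adhesion protein that repairs stress fibres, had 99.4 FPKM in LncHSC-2 and 80.7 in control, beside 78.2 in LncHSC-1. In LncHSC-1 over LncHSC-2 Scin and Zyx were lower and no gene was higher, with a median of -0.07, where 3.8% of all features were lower and 4.6% higher. The lists thus held fewer such genes than these shares of all features. No gene of the lists was 1.5-fold apart in any KSL comparison. Nck2, Gmfb and Scin are named because they passed the rule of size and were chosen after their values were seen.

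The 7 lists with genes at 5 FPKM or more in KSL cells each summed to a higher level in ppm in granulocytes than in any KSL library, and the same held in read share. The gap was narrowest for the WASP and WAVE partners of Arp2/3, which summed to 1766 ppm in granulocytes, against 1440 in LncHSC-1, 1405 in LncHSC-2 and 1441 in control. Of these 23 genes 8 stood above every KSL library, where 22.7% of all features did. GTPase regulators, which set where and when actin is assembled, summed to 6579 in granulocytes, against 2947 in LncHSC-1, 2947 in LncHSC-2 and 2937 in control, with 16 of 28 above every KSL library, where 22.7% of all features were. Arhgdib, the blood-cell inhibitor that holds small GTPases in the cytosol, was the highest of them. It had 1414 and 1419 FPKM in granulocytes, against 349 in LncHSC-1, 384 in LncHSC-2 and 363 in control. Its relative Arhgdia, from the same list, had 86.2 and 81.8 FPKM in granulocytes, against 176 in LncHSC-1, 180 in LncHSC-2 and 171 in control.

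**Figure D5:**
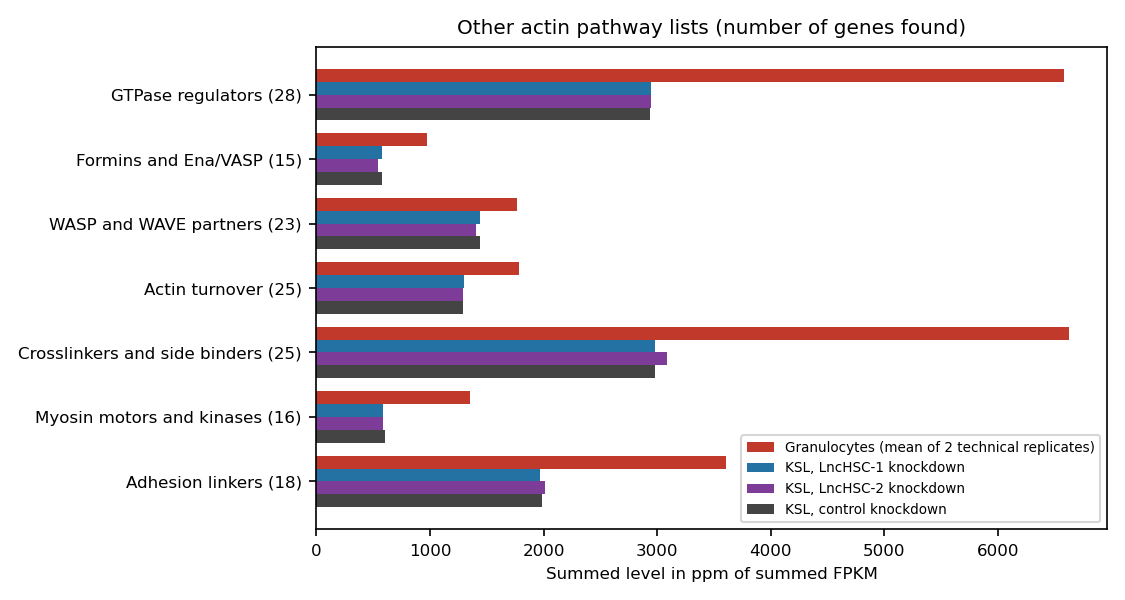
Summed level in ppm of summed FPKM of 7 pathway lists (bars start at 0; number of genes found in brackets) in granulocytes, the mean of 2 technical replicates, and in the 3 KSL libraries. The granulocyte bar is the longest in each list, from 973 for formins and Ena/VASP to 6630 for crosslinkers, and the 3 KSL bars are nearly equal.

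Formins and Ena/VASP genes, which build unbranched filaments, summed to 973 in granulocytes, against 579 in LncHSC-1, 546 in LncHSC-2 and 580 in control. Of these, 6 of 15 stood above every KSL library, where 22.7% of all features did. The same 22.7% stands beside the counts of the lists that follow. Fmnl1, a blood-cell formin, had 255 and 253 FPKM in granulocytes, against 72.0 in LncHSC-1, 68.4 in LncHSC-2 and 74.9 in control, whereas Inf2, another formin, had 2.29 and 2.24 FPKM, against 31.5 in LncHSC-1, 30.2 in LncHSC-2 and 29.4 in control. Crosslinkers and side binders summed to 6630 in granulocytes, against 2980 in LncHSC-1, 3086 in LncHSC-2 and 2982 in control, with 12 of 25 above every KSL library. Flna, filamin A, had 493 and 489 FPKM in granulocytes, against 64.6 in LncHSC-1, 70.3 in LncHSC-2 and 70.2 in control. Tagln2, a calponin relative, was far lower in granulocytes, with 55.4 and 54.0 FPKM, against 479 in LncHSC-1, 527 in LncHSC-2 and 478 in control. Actin turnover genes summed to 1779 in granulocytes, against 1297 in LncHSC-1, 1289 in LncHSC-2 and 1287 in control, with 11 of 25 above. The cofilin relative Dstn had 220 and 221 FPKM in granulocytes, against 35.4 in LncHSC-1, 37.3 in LncHSC-2 and 39.4 in control, and the coronin Coro2a had 6.40 and 6.32 FPKM, against 139 in LncHSC-1, 138 in LncHSC-2 and 135 in control. Myosin motors and kinases summed to 1355 in granulocytes, against 587 in LncHSC-1, 586 in LncHSC-2 and 606 in control, and 6 of 16 stood above. Myo1f, a class I myosin of neutrophils, had 310 and 307 FPKM in granulocytes, against 9.19 in LncHSC-1, 9.65 in LncHSC-2 and 9.48 in control. Adhesion linkers summed to 3604 in granulocytes, against 1969 in LncHSC-1, 2015 in LncHSC-2 and 1989 in control, with 10 of 18 above. Among them Zyx had 368 and 364 FPKM and the talin gene Tln1 236 and 232 FPKM in granulocytes, where Tln1 had 143 FPKM in LncHSC-1, 144 in LncHSC-2 and 135 in control.

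Promoter sequences of 34 members were matched by symbol in the RefSeq table of GRCm38.p6, each running from 250 bases before to 50 after the annotated start. Actb had no entry there, so its promoter was not searched. A gene was counted if any of its promoters held the motif. The CArG box, the site of serum response factor, which is known to drive actin genes, was searched on both strands together with GGGCGG, the GC box, and CCGGAAG, an ETS-type site, none of which contains another. These motifs were chosen after the data were seen. The CArG box was found in 3 of 34 members (8.82%), against 1.81% of all 27025 genes with promoters and 1.55% of the 1293 averaging at least 50 FPKM. They are shown with 30 bases each, the motif in capitals, because one belongs to Actg1, the gene that varied most among the KSL libraries.
Actg1: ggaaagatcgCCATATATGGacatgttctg
Myl6: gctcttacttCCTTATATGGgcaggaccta
Arpc4: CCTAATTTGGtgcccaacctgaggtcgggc
The Actg1 window is chr11:120348566-120348595 on the minus strand, with the motif beginning 90 bases before the start. The Myl6 window is chr10:128493040-128493069 on the minus strand, with the motif 50 bases before the start, and the Arpc4 window is chr6:113377863-113377892 on the plus strand, with the motif 250 bases before it. CCGGAAG was found in 13 of 34 members (38.2%), against 9.93% of all genes with promoters and 25.2% of the abundant ones. It was present in 4 Arp2/3 subunit promoters, shown with the motif in capitals.
Arpc3: ggagcaagtcaCCGGAAGtgcgtttattcc
Arpc4: gatggtccagcCCGGAAGtgctgtcggaga
Actr2: caagcgcagccCCGGAAGcagaacgaggcg
Actr3: tttctggctatCCGGAAGggagccggggcc
These windows are chr5:122391856-122391885 (plus strand), chr6:113378090-113378119 (plus), chr11:20113057-20113086 (minus) and chr1:125435795-125435824 (minus), with the motif 11, 12, 124 and 86 bases before the start. GGGCGG was found in 27 of 34 members (79.4%), against 38.2% of all genes with promoters and 69.1% of the abundant ones. A match describes the letters only, and binding was not measured.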

How the data were processed

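Of the 5 libraries, the submitters' processing notes name the mouse build mm9 and DESeq; neither an aligner, a counter nor an annotation release was given in the sources used here. Each library has an FPKM value and a count value per feature, per the file headers. The granulocyte count values as deposited are a score, whole numbers scaled and rounded by the authors, and their FPKM is this score over the length in kilobases and 50 M in both replicates. The KSL count values as deposited are a signal, each read carrying 1 library-wide weight: 1 read was worth 0.924 in LncHSC-1, 1.03 in LncHSC-2 and 1.08 in control, and the estimated reads were used for counting intervals only. No count test was run.

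Ratios between KSL libraries were log2(FPKM + 1), which understates the change of low genes, for features with a mean of at least 5 FPKM. FPKM was used as scaled by the authors, with median-of-ratios factors of 0.989, 1.01 and 1.00 in LncHSC-1, LncHSC-2 and control. Intervals carry no pseudocount. Levels across the separately scaled experiments are in parts per 1000000 of summed FPKM. All 35 members are named; of each pathway list the rule names up to 3 genes highest in granulocytes, up to 2 more highest in KSL cells and any past 1.5-fold, and of each marker list up to 4. The members and lists were chosen with earlier results of these data known. Shared 50-base words were counted over GENCODE M21 transcripts, and promoters came from RefSeq. Python 3.11.15, pandas 2.3.3, numpy 2.4.6 and SciPy 1.17.1 were used, and the code for ratios and intervals was run on simulated data. The simulated counts held counting error only, so they cannot show how the ratios behave under spread between cultures. B cell libraries named in the design were not analysed here. One pathway list and one detail of the culture medium are not reported here.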

Additional observations from a re-analysis of the deposited data

How the results depend on the processing

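No paired analysis was possible because the groups compared hold 1 biological sample each and share fewer than 2 replicate numbers. The median log2 ratio of LncHSC-1 over control was -0.0195 from scaled count columns and -0.0192 from scaled FPKM. That of LncHSC-2 over control was -0.11 from count columns as deposited. That of LncHSC-1 over LncHSC-2 was 0.063 from count columns as deposited, -0.0577 from scaled count columns and -0.0588 from scaled FPKM. With count columns as deposited 1 member, Gsn, was 1.2-fold higher and 0 were lower in LncHSC-1 over LncHSC-2. The count columns themselves place the median feature of these comparisons off 0. Of 105 member ratios, 70 moved with count columns as deposited, 4 with either scaling, and 0 with a pseudocount of 0.1 or 5 or without the floor.

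The summed level of the members was 50272 ppm in granulocytes against 19729 in LncHSC-1, 19749 in LncHSC-2 and 19570 in control. It was 101671 against 20519, 20487 and 20294 with the 50 highest granulocyte features taken out of the total only. Members among those 50, such as Tmsb4x and Actb, stayed in the sum, so these values are not shares of that total. After median-of-ratios scaling the summed level was 80605 against 19573 and 20242 in LncHSC-1 and LncHSC-2. Over features of at least 5 FPKM it was 51704 against 20215, 20195 and 20033. In alternatives chosen after the data were seen, it was 48092 against 14953, 15403 and 15081 as read share in ppm, and 20419, 20872 and 20530 in LncHSC-1, LncHSC-2 and control at common lengths. Leaving out either granulocyte replicate gave 49883 to 50663. Between 28 and 32 members stood above every KSL library across these settings. Common lengths moved 24 of 64 pair ratios. As these lengths are those of the granulocyte tables, the granulocyte ratios among the 64 could not move. At 768 reads or more per member counting error is narrow, and the spread between cultures is unknown.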

Other observations

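Of 5 actin genes outside the 35, smooth-muscle actin alone reached 5 FPKM in any group. Acta2 had 21.98 and 21.8 FPKM in granulocytes, against 0.0418 in LncHSC-1 and 0 in both LncHSC-2 and control. Of its 50-base words 0.326% occur in other genes. The other markers of fibroblasts and smooth muscle were low in the same granulocyte libraries, with Tagln at 2.44 and 2.75, Col1a1 at 0.775 and 0.598, and Col1a2 at 0.00786 and 0 FPKM. Tagln was lower still in KSL cells, with 0.570 FPKM in LncHSC-1, 0.557 in LncHSC-2 and 0.554 in control. Of the 7 fibroblast, smooth muscle and endothelial markers 3 stood above every KSL library in ppm, where 22.7% of all features did. The source of the Acta2 transcript was not tested. Actc1 and Actbl2 were listed at 0 in all libraries.

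An unnamed feature, HAG_035057, overlaps the end of Vasp on the opposite strand. It had 244 FPKM in granulocyte replicate 1, against 1.01 in LncHSC-1, 1.72 in LncHSC-2 and 1.499 in control. The sources used here do not say whether counting used strand, so reads of this feature and of Vasp cannot be told apart. Acta2, HAG_035057 and the processed copies named above were chosen after their values were seen.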
